A study of Mus musculus with 15 samples.

Results

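RNA-seq profiles of mouse dental mesenchymal cells (mDMCs) were compared between 24 h and 36 h of culture, that is, between the 3 libraries labelled day 1 and the 3 labelled day 1.5, which are 6 of the 15 libraries of the series. The comparison covered all 12089 transcripts in the deposited table, and 11973 of them were matched to a mouse gene. mDMCs were taken from the mandibular first molar germs of ICR mouse embryos at E14.5, where the mesenchyme was freed from the epithelium with dispase and made into single cells with trypsin. Both groups were primary cells grown in DMEM with FBS, and by their labels the groups differ only in the time in culture. The other libraries were 3 of freshly isolated cells (0 h), 2 at 12 h, 3 at 48 h and 1 of dental mesenchymal tissue. Libraries were made in duplicate or triplicate, and a general statement of the study on independent experiments does not say which libraries came from separate cultures or how many embryos went into each. P-values therefore measure only the spread between these libraries, which may in part be technical. The interval bears on the question of when cultured mDMCs change, since the study followed their capacity to induce teeth over this time.

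The condensed mesenchyme of a molar germ carries transcription factors such as Msx1, Pax9, Lhx6 and the Dlx proteins, and it exchanges BMP, FGF and Wnt signals with the dental epithelium. Several general programmes are known to move in cultured cells: glycolysis and the targets of the hypoxia-inducible factor HIF, lysosome biogenesis under the TFEB family, sterol synthesis under SREBP, and arrest and repair genes under p53. These programmes and the dental genes were read from gene lists, and each list is described by its members and not by a test of the list. In bulk RNA, fewer cells of a type and less RNA per cell cannot be told apart.

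The deposited values are whole numbers with nearly the same distribution in all libraries, identical at 71.9% of ranks, with a median of 721 and a maximum of 127101, so the sequencing depth is unknown and counting error cannot be given. High transcripts take values from a fixed ladder, so that libraries of a group often hold the identical value, and the spread of such transcripts is understated. At 36 h, replicates 1 and 2 were nearly copies of each other. The squared differences between them were 1.21 times what counting noise would give if the values were read counts, for transcripts with values of 50 to 1000, whereas the other pairs of libraries within a time point gave 2.93 to 14.2. A formal test was not possible without counts. Replicates 1 and 2 at 36 h were therefore averaged and entered as 1 sample, so that 36 h had 2 samples and 24 h had 3. Markers of skeletal muscle, summed over 4 genes, were 350 and 544 in replicate 3 at 24 h and 36 h but 1635 to 3269 in the other 4 libraries.

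Between 24 h and 36 h, 622 transcripts rose (5.15% of those tested) and 476 fell (3.94%), at an adjusted p below 0.05 in limma. The median change over all transcripts was -0.02 on the log2 scale, here and below log2(value + 1). Of the called transcripts, 174 rose (1.44%) and 101 fell (0.835%) by more than 2-fold. Either direction was called for 1098 (9.08%). At an unadjusted p below 0.05 in limma together with a change above 2-fold, 279 were higher (2.31%) and 198 lower (1.64%). The study also cut at 2-fold and a p of 0.05, but in DESeq2 and without a word on adjustment. Without adjustment 1645 were higher (13.6%) and 1664 lower (13.8%). The 36 h libraries lay wholly above the 24 h libraries for 2685 transcripts (22.2%) and wholly below for 3034 (25.1%). The counts depended on single libraries. Without replicate 3 at 36 h, which leaves 1 sample whose spread is taken from the other times, 119 rose and 30 fell. Without replicate 2 or 3 at 24 h, 249 or 251 rose and 116 or 87 fell. With the near-identical 36 h libraries kept apart, 1210 rose and 1165 fell.

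**Figure D1:**
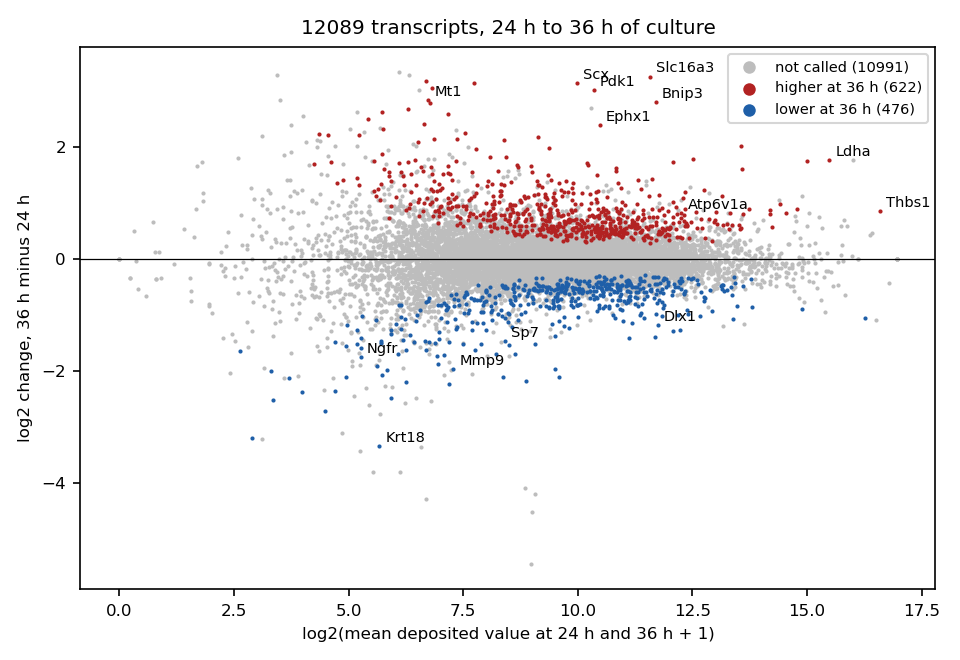
Log2 change from 24 h to 36 h (vertical axis) against the log2 of the mean deposited value plus 1 (horizontal axis) for 12089 transcripts, with the 622 that rose in red, the 476 that fell in blue and the rest in grey. Calls spread over most of the range of levels, and the named transcripts include Slc16a3, Pdk1 and Bnip3 near a change of 3 and Krt18 below -3.

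The 12 largest rises without overlap between the libraries were Slc16a3, Fam180a, Msln, Scx, Klhl30, Pdk1, Mt1, Bnip3, Mustn1, Kcnj4, Gpr146 and Klhdc7a, between 2.60 and 3.26 on the log2 scale. Scx, the tendon transcription factor scleraxis, had values of 424, 296 and 59 in replicates 1, 2 and 3 at 24 h and of 2063, 2103 and 1439 at 36 h (log2 change 3.14 ± 0.65 (SE), adjusted p = 0.016). Scx was at 13 and 20 in the 12 h libraries, below every 24 h library, and replicate 3 was the lowest at 24 h and at 36 h. Mt1, a metal-binding metallothionein, went from 26, 19 and 31 to 159, 176 and 203 (2.84 ± 0.44, adjusted p = 0.0048). Reads of Mt1 can be shared with its close paralogues, which makes its level uncertain. Klhdc7a was at 50, 44 and 23 at 24 h and at 327, 354 and 154 at 36 h, and Kcnj4, an inward rectifier potassium channel, at 32, 19 and 13 and then at 129, 169 and 119. Msln, the surface protein mesothelin, rose most in replicate 3, from 16 to 648, against 68 to 109 in replicate 1. Scx, Msln and Mustn1 lost their call when only the libraries of 24 h and 36 h were fitted. Msln and Mustn1 also lost it with a pseudocount of 0.1, that is, log2(value + 0.1), and without replicate 2 or 3 at 24 h. Outside the naming rule, and chosen after its values were seen, Ephx1 (microsomal epoxide hydrolase) had the smallest adjusted p of the 6 transcripts described last, with 528, 525 and 334 at 24 h and 2463, 2346 and 2372 at 36 h (2.40 ± 0.19, adjusted p = 0.00059).

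The 12 largest falls were Krt18, Fgf3, Ly6h, Necab2, Calca, Hbb-y, Nefl, Grp, Matn4, Emilin3, Igsf9 and Dlx1as. Krt18, a keratin of simple epithelia, went from 55, 146 and 74 to 13, 13 and 4 (log2 change -3.35 ± 0.82 (SE), adjusted p = 0.030). Its call was lost with a pseudocount of 16 and without replicate 2 or 3 at 24 h. Matn4, a matrilin of the extracellular matrix, went from 553, 586 and 1172 to 166, 203 and 137 (-2.18 ± 0.40, adjusted p = 0.0095), and Nefl, the light neurofilament chain, from 170, 179 and 375 to 68, 70 and 32 (-2.23 ± 0.47, adjusted p = 0.017). For both, replicate 3 was the highest library at 24 h and the lowest at 36 h. Dlx1as, the antisense partner of Dlx1, fell from 761, 1264 and 1762 to 284, 246 and 287. The library kit does not mark strand, so reads of Dlx1as and Dlx1 cannot be told apart. Ly6h (9 to 24 at 24 h and 0 to 7 at 36 h), Calca (12 to 34 and 1 to 6) and Hbb-y (26 to 55 and 2 to 21) were low throughout, and the adjusted p of Hbb-y was 0.054 with the replicate block, that is, with the replicate number as a term. Ly6h, Calca and Hbb-y each lost their call with a pseudocount of 16 and without replicate 3 at 24 h. Ly6h and Hbb-y also lost it without replicate 1 or 2 at 24 h.

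In the glycolysis and hypoxia list most members rose. Of the 32 members measured, 22 rose (68.8%, against 5.15% of all transcripts) and 0 fell, all 32 had a positive log2 change, the 36 h libraries lay wholly above the 24 h libraries for 30 (against 22.2% of all transcripts), and the median change was 0.99. The count of 22 was 3 without replicate 3 at 36 h, 10 without replicate 2 at 24 h, 11 without replicate 3 at 24 h and 26 with the near-identical libraries kept apart.

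The members run through the pathway in order. For glucose entry and trapping, Hk1 (hexokinase) rose from 1950, 1614 and 1466 to 3045, 3030 and 3591 (log2 change 0.99 ± 0.13, adjusted p = 0.0031), while the transporter Slc2a1 went from 4753, 2703 and 2352 to 5832, 5423 and 7398 without passing the test (adjusted p = 0.064). For the middle steps, Pfkl, the liver-type phosphofructokinase, rose by 1.80 and Tpi1, triosephosphate isomerase, by 1.61. Pgk1, which makes ATP from bisphosphoglycerate, went from 20818, 14325 and 11034 to 50368 in all 3 libraries (1.76 ± 0.33, adjusted p = 0.010). Eno1 (enolase) rose by 0.98, with 14408, 15128 and 14408 and then 28882 in each 36 h library. Reads of Eno1 may be shared with its near-identical copy Eno1b, so its level is uncertain. Pkm and Gapdh had positive changes of 0.69 and 0.64 that did not pass the test.

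At the exit of the pathway, pyruvate is either turned to lactate or passed to the mitochondria. Ldha, lactate dehydrogenase A, went from 23247, 18563 and 20924 to 70714 in all 3 libraries (log2 change 1.76 ± 0.25, adjusted p = 0.0035). The 36 h libraries share 1 value of the ladder, so this SE rests on the 24 h libraries and the other time points. Slc16a3 (MCT4), the lactate exporter, had values of 1743, 346 and 272 at 24 h and of 4856, 4923 and 5665 at 36 h (3.26 ± 0.81, adjusted p = 0.032). Pdk1, the kinase that holds pyruvate dehydrogenase inactive, had 742, 181 and 148 at 24 h and 1832, 1879 and 2648 at 36 h (3.03 ± 0.62, adjusted p = 0.016). For both, replicate 1 at 24 h lay far above the other 2 libraries of its time but below every 36 h library.

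The list also held HIF targets outside glycolysis. Bnip3, a mitophagy receptor, had 2027, 515 and 465 at 24 h and 4396, 4495 and 6847 at 36 h (log2 change 2.81 ± 0.61, adjusted p = 0.019), and its relative Bnip3l, which is not in the list and was chosen after its values were seen, had 1255, 935 and 978 and then 2448, 2708 and 2809 (1.36 ± 0.17, adjusted p = 0.0026). P4ha1, a collagen prolyl hydroxylase subunit, rose from 9415, 4001 and 2578 to 19251, 18544 and 18544 (2.03 ± 0.42). Ankrd37 and Higd1a rose by 2.42 and 1.41. Vegfa, the angiogenic ligand, had 1737, 947 and 904 at 24 h and 1639, 1756 and 2343 at 36 h, which overlapped (adjusted p = 0.11). Hif1a itself had 4969 to 5224 and then 5678 to 6101 and was not called (0.23 ± 0.09, adjusted p = 0.14). Slc16a3, Pdk1 and Bnip3 lost their call when only the libraries of 24 h and 36 h were fitted (adjusted p = 0.062, 0.057 and 0.058), and also without replicate 2 at 24 h (0.096, 0.058 and 0.065), replicate 3 at 24 h (0.11, 0.056 and 0.070) or replicate 3 at 36 h (0.17, 0.12 and 0.15). Slc16a3 lost it with only the cultured libraries too (adjusted p = 0.052).

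Replicate 1 at 24 h was the highest 24 h library for 30 of the 32 members, against 4109 of 12089 transcripts overall. Its list median lay 0.43 above the 24 h mean, with -0.16 and -0.28 for replicates 2 and 3. At 36 h the list medians were 0.89, 0.90 and 1.12 above the 24 h mean, and at 48 h they were 0.66, 0.10 and 0.32. The 24 h libraries thus did not reach any 36 h library, and the 48 h libraries lay below every 36 h library and overlapped those at 24 h. What set replicate 1 apart was not tested.

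**Figure D2:**
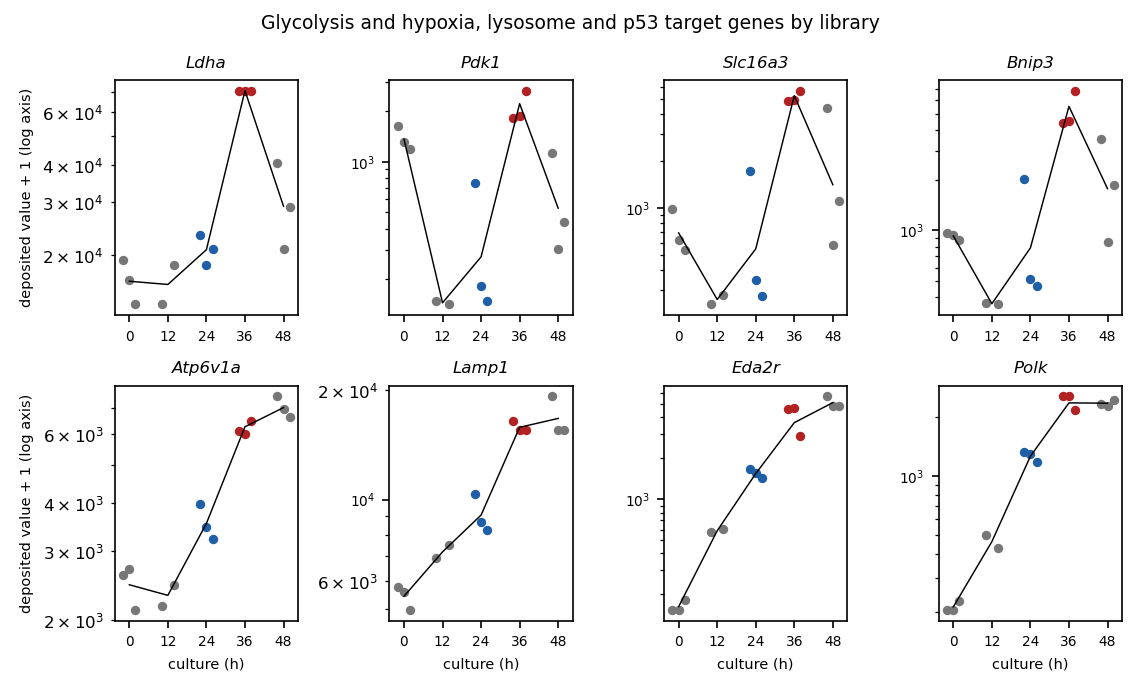
Deposited value plus 1 (log axis) in each library against hours of culture for 8 genes, with 24 h in blue, 36 h in red, other times in grey and a line through the geometric means, the near-identical 36 h libraries counted as 1. Ldha, Pdk1, Slc16a3 and Bnip3 peak at 36 h and are lower at 48 h, while the 48 h libraries of Lamp1 and Polk overlap those at 36 h and those of Atp6v1a and Eda2r lie above them.

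Promoter letters of members that moved together are shown for 4 of them, to set the 2 lists with the most called members beside the motifs that their known regulators read. ACGTG was the core searched for HIF, and CACGTG the core searched for TFEB. CACGTG contains ACGTG on both strands. The 250 bases before the RefSeq start site (GRCm38.p6) were searched on both strands, with matches in capitals. The sequences of Pgk1 (chrX:106186850-106187099, plus strand) and Bnip3 (chr7:138909507-138909756, minus strand) have ACGTG or its reverse complement in capitals. In Bnip3 the 2 matches overlap and read CACGTG. The sequences of Lamp1 (chr8:13158911-13159160, plus strand) and Gla (chrX:134601006-134601255, minus strand) have CACGTG in capitals.
Pgk1: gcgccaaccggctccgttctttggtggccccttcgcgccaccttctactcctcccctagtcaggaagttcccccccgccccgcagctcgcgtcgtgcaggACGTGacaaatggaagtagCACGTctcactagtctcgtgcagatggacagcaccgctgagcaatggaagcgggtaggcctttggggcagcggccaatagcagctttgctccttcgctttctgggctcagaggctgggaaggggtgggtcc
Bnip3: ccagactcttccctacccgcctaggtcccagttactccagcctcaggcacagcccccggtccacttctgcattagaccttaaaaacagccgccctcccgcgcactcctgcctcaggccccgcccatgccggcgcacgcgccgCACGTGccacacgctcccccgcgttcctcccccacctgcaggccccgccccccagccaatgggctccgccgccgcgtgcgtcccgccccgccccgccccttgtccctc
Lamp1: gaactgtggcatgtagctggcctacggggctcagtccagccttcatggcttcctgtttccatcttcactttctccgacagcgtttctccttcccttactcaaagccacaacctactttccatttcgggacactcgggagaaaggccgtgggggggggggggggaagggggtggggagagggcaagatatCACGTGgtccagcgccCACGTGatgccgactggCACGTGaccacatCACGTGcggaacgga
Gla: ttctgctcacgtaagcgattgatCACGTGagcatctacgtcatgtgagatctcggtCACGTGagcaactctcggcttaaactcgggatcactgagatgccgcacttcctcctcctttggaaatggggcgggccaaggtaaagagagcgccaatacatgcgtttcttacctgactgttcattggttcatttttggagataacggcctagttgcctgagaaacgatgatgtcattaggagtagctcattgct

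Of 26 glycolysis and hypoxia members with a promoter in the RefSeq table, 14 held ACGTG (53.8%), against 1918 of 8540 promoters of all table transcripts (22.5%). CACGTG was in 3 of the 26 (11.5%), against 8.79% of all. Of 28 lysosome members with a promoter, 9 held CACGTG (32.1%), against 751 of 8540 (8.79%), and 12 held ACGTG (42.9%). Lamp1 had 4 CACGTG matches in the window and Gla had 2. A match is a description of the letters and does not show that a factor was bound.

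The lysosome list, of hydrolases, membrane proteins and proton pump subunits that break down cell material, had 26 of 36 members higher (72.2%, against 5.15% of all transcripts) and 0 lower, with a median change of 0.64. The 36 h libraries lay above the 24 h libraries for 33 members, against 22.2% of all transcripts. The 26 were 5 without replicate 3 at 36 h and 17 without replicate 2 or 3 at 24 h. Among the hydrolases, Man2b1 (alpha-mannosidase) went from 582, 570 and 613 to 951, 995 and 1027 (log2 change 0.76 ± 0.10, adjusted p = 0.0029). Gla (alpha-galactosidase) rose by 1.14, Asah1 (acid ceramidase) by 1.01 and Ctsl (cathepsin L) by 0.84. In each of these genes, no 36 h library was as low as the highest 24 h library.

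Of the membrane and pump genes, Lamp1 had 10397, 8703 and 8254 at 24 h and 16448, 15574 and 15574 at 36 h (log2 change 0.80 ± 0.13, adjusted p = 0.0061). Lamp2 had 4192, 3616 and 3496 and then 6209, 6333 and 6703. Atp6v1a, the catalytic subunit of the proton pump, had 3969, 3459 and 3226 and then 6099, 5988 and 6497 (0.82 ± 0.12, adjusted p = 0.0045). Tfeb, the transcription factor, was the only member with a negative change and did not pass the test, with 131 to 158 at 24 h and 82 to 98 at 36 h (adjusted p = 0.21). List medians at 48 h, 0.65 to 0.81 above the 24 h mean, overlapped those at 36 h, 0.64 to 0.68. Replicate 1 was the highest 24 h library for 30 of the 36 members here too.

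Of 25 p53 target genes, 12 rose (48.0%, against 5.15% of all transcripts) and 0 fell, with a median change of 0.89. The 12 were 8 without replicate 3 at 36 h and 9 without replicate 2 or 3 at 24 h. Among the feedback and arrest genes, Mdm2, the ubiquitin ligase that restrains p53, went from 4240, 4209 and 3947 to 10404, 10404 and 9163 (log2 change 1.24, adjusted p = 0.0034), and Ccng1 (cyclin G1) from 18558, 19258 and 20919 to 36423 in all 3 libraries. Cdkn1a, the cyclin-dependent kinase inhibitor p21, had 1231, 1284 and 1158 and then 2671, 2509 and 1988 without passing the test (adjusted p = 0.098). Among death genes, Pmaip1 (Noxa) went from 293, 314 and 397 to 1221, 1238 and 728, Bax from 3425, 3731 and 3751 to 6191, 6413 and 5272, and the receptor Eda2r from 1677, 1549 and 1422 to 4584, 4660 and 2899 (1.24 ± 0.17, adjusted p = 0.0032). Polk, a polymerase that copies past DNA damage, went from 1320, 1286 and 1173 to 2548, 2548 and 2180, and Ei24 rose by 0.91. Replicate 3 was the lowest 36 h library for 23 of the 25 genes. The list had already moved in the step before, with a median change of 1.01 from 12 h to 24 h and 13 members higher (against 3.69% of all transcripts), while its median change from 36 h to 48 h was 0.06. Ddit4, which is also a HIF target, went from 1033, 600 and 551 to 2202, 2114 and 1835.

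**Figure D3:**
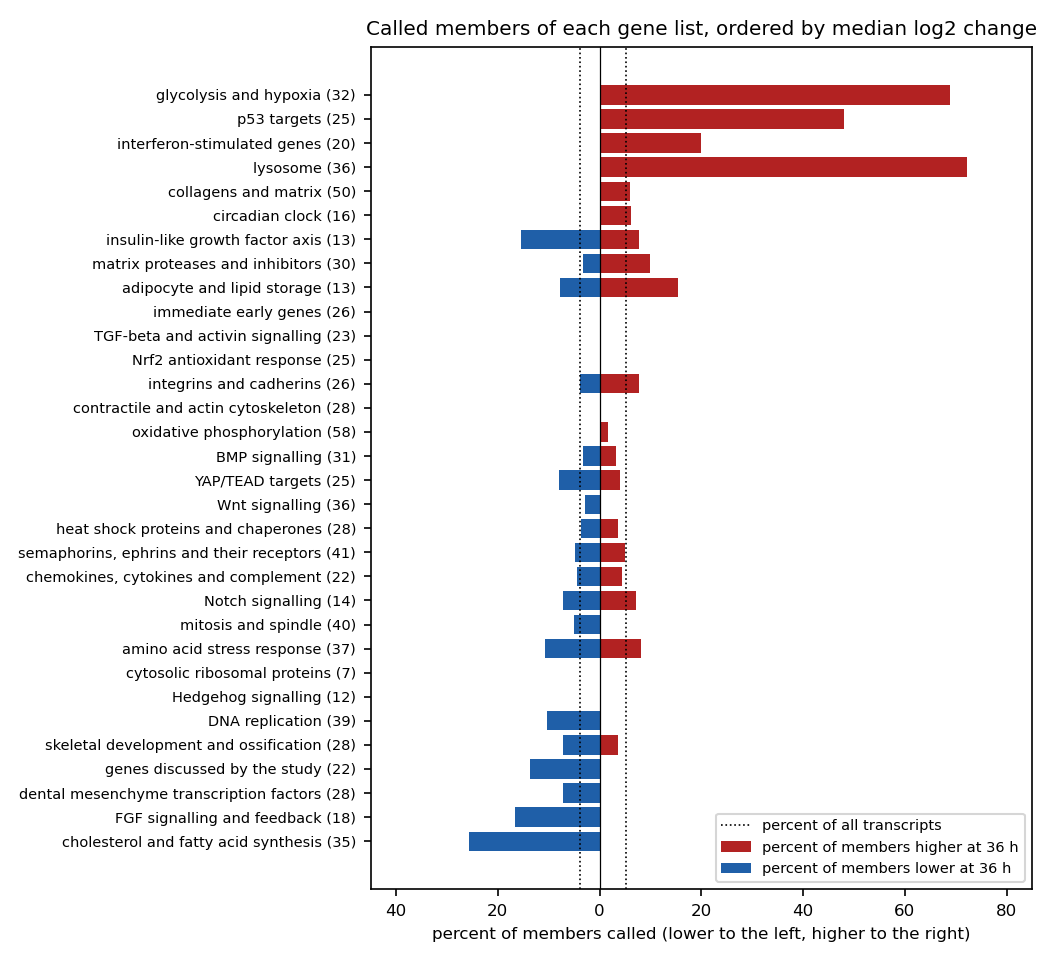
Percent of the members of each gene list that rose (red, right) or fell (blue, left) from 24 h to 36 h, with the number of members in brackets and dotted lines at 5.15% and 3.94%, the percent of all transcripts. Glycolysis and hypoxia, lysosome and p53 targets reach furthest to the right and cholesterol and fatty acid synthesis furthest to the left.

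Of 50 collagen and matrix genes 3 rose (6.0%, near the 5.15% of all transcripts) and 0 fell, with a median change of 0.28. Between same-numbered libraries the median was 0.03, 0.36 and 0.39 for replicates 1, 2 and 3. At 24 h replicate 1 was the highest library for 31 members and replicate 3 the lowest for 32. The 3 that rose were Thbs1, Fbln2 and Has2. The count was 1 without replicate 3 at 36 h, 2 without replicate 2 or 3 at 24 h, 11 without replicate 1 at 24 h, 7 with the replicate block and 10 with the near-identical libraries kept apart. Thbs1 (thrombospondin 1) was at 70508 in every 24 h library and at 127101, the maximum, in every 36 h library, so that no spread within either time was visible and the size of the rise is not exact. Fbln2 (fibulin 2) went from 2410, 2318 and 2213 to 3313, 3240 and 3578 (log2 change 0.57 ± 0.11, adjusted p = 0.010). Has2, which makes hyaluronan, rose by 0.46, and its adjusted p was 0.053 with the replicate block. Col5a2 and Col12a1 were at the maximum in all 6 libraries, so that a change in them could not be seen. Lox, the collagen cross-linker, had 50479, 31853 and 13296 at 24 h and 70675, 70675 and 127101 at 36 h and was not called (adjusted p = 0.080). Of 30 matrix proteases and inhibitors, Mmp14, Timp2 and Serpine2 rose (10.0%, against 5.15% of all transcripts) and Mmp9 fell (3.3%, against 3.94%). Mmp9 (gelatinase B) went from 161, 271 and 311 to 60, 44 and 70 (-1.97 ± 0.36, adjusted p = 0.010), and the call of Serpine2 was lost with the replicate block (adjusted p = 0.061). Without replicate 1 at 24 h 5 of the 30 rose, as did 5 with the near-identical libraries kept apart. Without replicate 2 or 3 at 24 h 1 of the 30 rose, and without replicate 3 at 36 h 2 rose and 0 fell.

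Of 20 interferon-stimulated genes in the table, of 36 listed, 4 rose (Ifit2, Tap1, Ddx58 and B2m, against 5.15% of all transcripts) and 0 fell, with a median change of 0.71. Tap1, a peptide transporter for antigen display, went from 278, 327 and 352 to 925, 936 and 674 (log2 change 1.32 ± 0.29, adjusted p = 0.020). Without replicate 2 or 3 at 24 h, or replicate 3 at 36 h, none of the 20 was called. Of 13 genes of the insulin-like growth factor axis, the binding protein gene Igfbp7 rose (7.7%, against 5.15% of all transcripts) and Igfbp3 and Igfbp4 fell (15.4%, against 3.94%). Igfbp4 went from 3470, 3116 and 3731 to 2234, 2267 and 1733 (-0.80 ± 0.11, adjusted p = 0.0038), and Igfbp3 from 2188, 2286 and 5388 to 1133, 1118 and 1142, where replicate 3 at 24 h stood alone. The call of Igfbp3 was lost without that library (adjusted p = 0.061), without replicate 3 at 36 h (0.16) and with only the libraries of 24 h and 36 h (0.083) or only the cultured libraries (0.051), while Igfbp4 kept its call under every alternative. The IGF receptors and ligands in the list were not called, but Igf2r, with a log2 change of 0.77 (adjusted p = 0.064), passed with the replicate block (adjusted p = 0.026), where 4 IGF genes were higher. None was higher without replicate 2 or 3 at 24 h or replicate 3 at 36 h.

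The largest share of falling members was among cholesterol and fatty acid synthesis genes, with 9 of 35 lower (25.7%, against 3.94% of all transcripts) and 0 higher and a median change of -0.44. The 9 were 2 without replicate 3 at 36 h, 4 without replicate 2 or 3 at 24 h, 5 without replicate 1 at 24 h and 14 with the near-identical libraries kept apart. In the sterol branch, Idi1 (isopentenyl diphosphate isomerase) went from 6633, 5908 and 5785 to 2172, 2264 and 2850 (log2 change -1.28 ± 0.26, adjusted p = 0.014), Hsd17b7 from 2042, 1796 and 2016 to 952, 1077 and 1104 (-0.88 ± 0.13, adjusted p = 0.0038), and Fdps fell by 0.91. In the fatty acid branch, Acaca (acetyl-CoA carboxylase) went from 3554, 3385 and 3638 to 1717, 1678 and 1925 (-0.96 ± 0.15, adjusted p = 0.0055), and the elongase Elovl6 from 2740, 2421 and 2187 to 1089, 1185 and 1205. For each of these the 36 h libraries lay below all 24 h libraries. Scd1 and Srebf2, at -0.13 and -0.11, were not called. Replicate 1 was the highest 24 h library for 31 of the 35 members, and replicate 3 the highest 36 h library for 30. Between same-numbered libraries the median change was -0.71, -0.39 and -0.16 for replicates 1, 2 and 3. The list's median change from 36 h to 48 h was -0.60.

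Of 39 DNA replication genes 4 fell (10.3%, against 3.94% of all transcripts) and 0 rose, with a median of -0.27, and 37 had a negative change. The 4 were Pold1 (DNA polymerase delta), Uhrf1, Mcm5 and Cdc6, between -0.64 and -0.45. Cdc6, a licensing factor, went from 963, 987 and 993 to 721, 734 and 711 (log2 change -0.45 ± 0.08, adjusted p = 0.010). The count was 0 without replicate 3 at 36 h, 2 without replicate 3 at 24 h, 7 without replicate 1 at 24 h and 14 with the near-identical libraries kept apart. Of 40 mitosis and spindle genes Kif11 and Incenp fell (5.0%, near the 3.94% of all transcripts) and 0 rose, with a median of -0.17, and neither was called without replicate 2 or 3 at 24 h or replicate 3 at 36 h. Between same-numbered libraries the median change was -0.05, -0.48 and -0.05 for replicates 1, 2 and 3. At 24 h replicate 1 was the highest library for 0 of the 40 genes and replicate 3 for 2. In the step from 12 h to 24 h, 17 of these 40 had risen, against 3.69% of all transcripts.

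The 37 genes of the amino acid stress response divided. Vldlr, Ddit3 and Atf5 rose (8.1%, against 5.15% of all transcripts), and Mthfd2, Mars, Psat1 and Aldh18a1 fell (10.8%, against 3.94%). All 7 calls were lost without replicate 2 or 3 at 24 h or replicate 3 at 36 h, and with the replicate block 1 rose and 3 fell. The Vldlr transcript, annotated as retaining an intron, went from 618, 311 and 242 to 813, 822 and 1116, with replicate 1 the highest at 24 h. Ddit3 (CHOP), a stress transcription factor, went from 544, 517 and 545 to 1419, 1423 and 1056 (log2 change 1.19 ± 0.33, adjusted p = 0.043, and 0.058 with the replicate block). Mthfd2, an enzyme of mitochondrial one-carbon metabolism, went from 2320, 2032 and 2041 to 1125, 1141 and 1194 (-0.87 ± 0.19, adjusted p = 0.021). Hspa8, the constitutive HSP70, fell from 36428, 40684 and 40684 to 23247, 23247 and 19261 (-0.89 ± 0.19, adjusted p = 0.017), and the small chaperone Cryab rose by 1.40. Of 28 heat shock and chaperone genes no others were called (3.6% in each direction, below the 5.15% and 3.94% of all transcripts), and none was without replicate 2 at 24 h or replicate 3 at 36 h.

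Of 28 dental mesenchyme transcription factors in the table, 2 fell (7.1%, against 3.94% of all transcripts) and 0 rose, with a median change of -0.38, and the 36 h libraries lay below the 24 h libraries for 12, against 25.1% of all transcripts. Among the Dlx genes, which pattern the jaw, Dlx1 had 3858, 4750 and 5769 at 24 h and 2090, 1995 and 2114 at 36 h (log2 change -1.19 ± 0.26, adjusted p = 0.020), and its neighbour Dlx2 had 487, 631 and 953 and then 385, 405 and 391 without passing the test (-0.76 ± 0.35, adjusted p = 0.18). Sox11 went from 2306, 2731 and 2715 to 1774, 1839 and 1295 (-0.75 ± 0.20, adjusted p = 0.040, and 0.054 with the replicate block). The count of 2 was 0 without replicate 2 or 3 at 24 h or replicate 3 at 36 h, and 5 with the near-identical libraries kept apart. Dlx1 was at 2294, 2891 and 4892 in the 48 h libraries.

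Msx2, which acts with Msx1 downstream of BMP, had 151, 198 and 265 at 24 h and 90, 92 and 72 at 36 h (log2 change -1.29 ± 0.37). It missed the threshold at an adjusted p of 0.051 and passed it with the replicate block (0.013). Msx1 had 3355, 3165 and 3545 and then 3693, 3730 and 3238, which overlapped (0.05 ± 0.09, adjusted p = 0.79). Pax9 had 903, 1130 and 1301 and then 769, 739 and 694 (-0.60 ± 0.26, adjusted p = 0.16). Lhx6 had 1663, 1592 and 1668 and then 1384, 1321 and 1283 (-0.32 ± 0.13, adjusted p = 0.14). For Pax9 and Lhx6 the 36 h libraries lay below all 24 h libraries, yet the difference did not pass the test, and Barx1 and Lhx8, with log2 changes of -0.09 and -0.21, were not called. Replicate 3 was the highest 24 h library for 20 of the 28 factors, and it was the highest for 4812 of all 12089 transcripts.

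**Figure D4:**
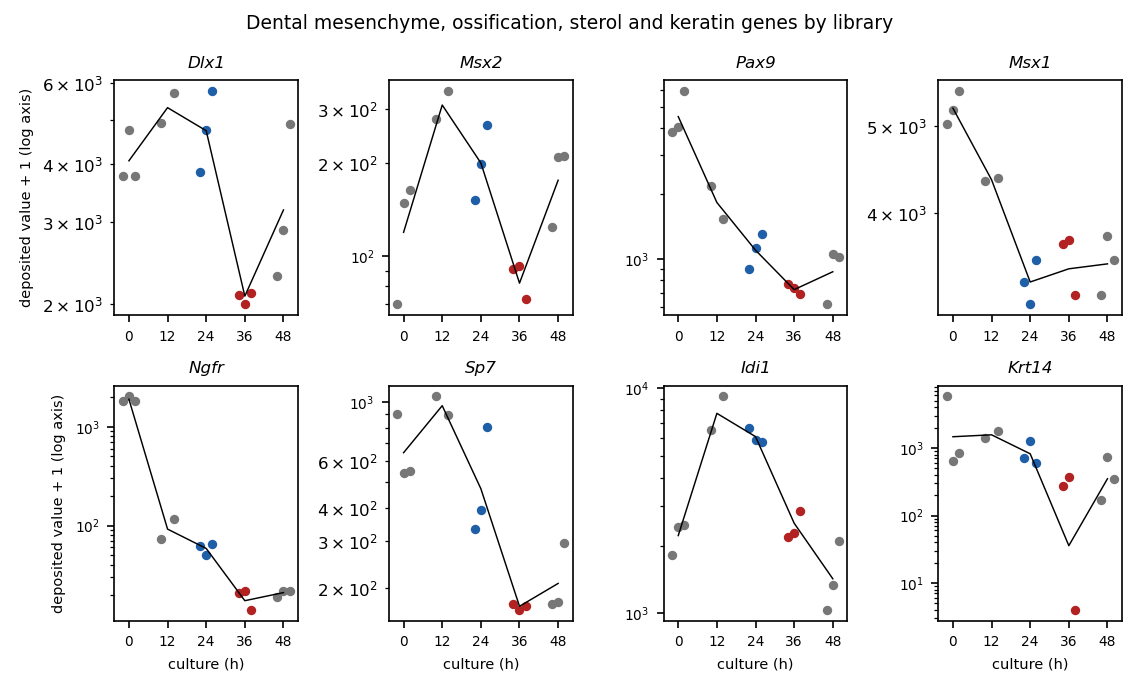
Deposited value plus 1 (log axis) in each library against hours of culture for 8 genes, drawn as in the plot of rising genes. The 36 h libraries lie below the 24 h libraries for all shown except Msx1, and Krt14 in replicate 3 at 36 h is at 3.

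Of the signals exchanged between mesenchyme and epithelium, 3 of 18 FGF genes fell (16.7%, against 3.94% of all transcripts) and 0 rose, with a median change of -0.43. Fgf3, an FGF ligand of the dental mesenchyme, was listed at 4, 11 and 23 at 24 h and at 1, 0 and 0 at 36 h (adjusted p = 0.030), values so low that no fold is given and that the call was lost with a pseudocount of 16 (adjusted p = 0.22). Fgfrl1, a receptor without a kinase domain, went from 880, 793 and 906 to 456, 479 and 471 (log2 change -0.87 ± 0.14, adjusted p = 0.0069), and Fgfr3 from 453, 338 and 419 to 262, 280 and 286 (-0.52 ± 0.14, adjusted p = 0.044). Fgf10 had 974 to 1153 and then 1070 to 1299 and was not called. None of the 3 was called without replicate 3 at 36 h, 1 FGF gene was called without replicate 3 at 24 h, and 5 were with the replicate block.

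Of 31 BMP genes 1 rose and 1 fell (3.2% each, no more than the 5.15% and 3.94% of all transcripts). Neither was called without replicate 3 at 24 h or at 36 h, and with the replicate block 3 rose and 3 fell. The ligand gene Bmp2 went from 582, 565 and 573 to 241, 247 and 340 (log2 change -0.99 ± 0.23, adjusted p = 0.023), and the antagonist gene Grem1 (gremlin) went from 13634, 13266 and 12464 to 20818, 19215 and 28694 (0.87 ± 0.23, adjusted p = 0.039). Bmp2 and Grem1 also lost their call without replicate 2 at 24 h, and Grem1 without replicate 1 at 24 h. Bmp4, the mesenchymal ligand of the tooth germ, had 5772, 6078 and 4573 and then 5154, 5154 and 5667, which overlapped (-0.01 ± 0.15). Of 36 Wnt genes only Rspo1 (2.8%, against 3.94% of all transcripts lower), an enhancer of Wnt reception, was called, with 51, 46 and 73 and then 13, 13 and 24 (-1.60 ± 0.34, adjusted p = 0.017). Rspo1 lost its call without replicate 3 at 24 h and with only the libraries of 24 h and 36 h. Without replicate 1 at 24 h, 4 Wnt genes were higher and 2 lower. Wnt5a and Lef1, at -0.23 and -0.53, did not pass the test. Of 14 Notch genes 1 rose and 1 fell (7.1% each, against 5.15% and 3.94% of all transcripts). The receptor gene Notch3 rose from 1150, 1164 and 1114 to 2149, 2062 and 1539, a call lost with the replicate block (adjusted p = 0.062), and the target gene Hey1 fell from 325, 373 and 448 to 203, 194 and 158 (-1.09 ± 0.27, adjusted p = 0.033). Neither was called without replicate 2 or 3 at 24 h or replicate 3 at 36 h. None of 12 Hedgehog and 23 TGF-beta genes was called in limma, and at an unadjusted p below 0.05 there were 2 lower in the former and 3 higher and 2 lower in the latter, against 13.6% higher and 13.8% lower of all transcripts.

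Of 28 genes listed under skeletal development and ossification, Sp7 and Tnfsf11 fell (7.1%, against 3.94% of all transcripts) and Ostm1 rose (3.6%, against 5.15%). The median change was -0.31. Sp7 (osterix), needed for osteoblasts, went from 332, 392 and 805 to 173, 164 and 170 (log2 change -1.47 ± 0.36, adjusted p = 0.029). Replicate 3 at 24 h stood above the other 2, and without it the change was -1.09 and not called (adjusted p = 0.074). Tnfsf11 (RANKL), the osteoclast-inducing ligand, went from 90, 163 and 129 to 50, 41 and 42 (-1.48 ± 0.39, adjusted p = 0.040). Runx2, upstream of Sp7, and the phosphatase gene Alpl had log2 changes of -0.55 and -0.72 and were not called. Neither Sp7 nor Tnfsf11 was called without replicate 2 or 3 at 24 h or replicate 3 at 36 h. The table transcript of Ostm1, annotated as processed and not coding, rose by 1.07.

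Of the 22 genes that the study discusses and the table holds, Ngfr, Dlx1 and Fgf3 fell (13.6%, against 3.94% of all transcripts) and 0 rose. That list was chosen by the study on these samples, so its direction is not independent evidence. Without replicate 2 or 3 at 24 h or replicate 3 at 36 h 1 of the 3 was called. Ngfr, the p75 neurotrophin receptor of neural crest cells, went from 61, 49 and 64 to 20, 21 and 13 (log2 change -1.76 ± 0.25, adjusted p = 0.0036) and kept its call under every alternative. Pdgfra, a general mesenchymal receptor, had 3367 to 4048 and then 3070 to 3500 (-0.15 ± 0.09, adjusted p = 0.31), and Fos, Egr1 and Jund were not called.

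The remaining lists are given by their called members, beside 9.08% of all transcripts called in either direction. Of YAP/TEAD targets, Thbs1 rose, and Wwc1 and Fjx1 fell, of 25, and 2 were higher and 3 lower with the replicate block. Of integrins and cadherins, Cdh2 (N-cadherin) rose from 1936, 2180 and 1729 to 3536, 3388 and 3641 (log2 change 0.87 ± 0.15, adjusted p = 0.0077), Itgb5 rose by 0.68 and Cdh5 fell, of 26. Of semaphorins, ephrins and their receptors, Plxnb2 and Epha2 rose and Plxna2 and Efna2 fell, of 41, with 5 higher and 4 lower with the replicate block and none without replicate 3 at 24 h. Of chemokines and related genes, Ccl2 rose by 1.11 and Vcam1 fell by 0.81, of 22, and 3 were lower with the replicate block. Of 13 genes listed under adipocytes and lipid storage, which need not be specific to them, Plin2 and Pdgfrb rose and Dlk1 fell. The calls of Pdgfrb and Dlk1 were lost with the replicate block (adjusted p = 0.056 in both). Of 16 clock genes Dbp rose, from 13, 12 and 16 to 38, 60 and 27, and it was not called without replicate 2 or 3 at 24 h, while 2 clock genes were higher with the replicate block. Without replicate 3 at 36 h no integrin, semaphorin, chemokine or adipocyte gene of these lists was called, and 1 YAP/TEAD gene was higher and 1 lower. Of 58 oxidative phosphorylation genes 1 rose and 0 fell, with a median change of -0.01, and that call was lost when any 1 of the 24 h libraries was left out. In limma none of 26 immediate early, 28 contractile, 25 Nrf2 and 7 ribosomal protein genes was called. At an unadjusted p below 0.05, 0, 0, 1 and 0 were higher and 0, 3, 3 and 3 lower. The shares of all transcripts at that cut were 13.6% and 13.8%. Only these 7 of 76 listed ribosomal protein genes had values, and all 7 had a negative log2 change.

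Markers of other cell types were summed in each library. Epithelial markers, 7 of 8 in the table, summed to 949 to 1845 at 24 h and to 85 to 570 at 36 h, which did not overlap. Krt14 had 718, 1276 and 600 and then 272, 365 and 3, and Krt5 had 80, 269 and 170 and then 52, 71 and 0, neither of which was called (adjusted p = 0.071 and 0.086). Replicate 3 at 36 h was nearly empty of both keratins. The epithelial sums were lower at 36 h, as Krt18 was, and their part in the falls named above was not tested. Red blood cell markers, 7 of 8 in the table and with Slc4a1 at 0 in all 6 libraries, summed to 263 to 703 and then to 70 to 245, and the globin genes share reads. Endothelial markers summed to 603 to 777 and to 693 to 788, and macrophage markers, 5 of 8 in the table, to 550 to 871 and to 604 to 744, both overlapping. Pericyte markers summed to 3927 to 4152 and to 5191 to 6643. Dental mesenchyme markers, all 7 in the table, summed to 14745 to 18445 and to 12193 to 12672, and the 6 general mesenchyme markers to 186377 to 263702 and to 200277 to 319815.

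The steps on either side share libraries with this one, so their values are only set beside it. From 12 h to 24 h, 446 transcripts rose (3.69%) and 336 fell (2.78%), and from 36 h to 48 h limma called 0 and 0, with 501 higher (4.14%) and 606 lower (5.01%) at an unadjusted p below 0.05. In a test of the difference itself, the step from 24 h to 36 h differed from the following step for 6 transcripts (0.0496%), all with the larger rise from 24 h to 36 h: Ldha, Ephx1, Bnip3l, Thbs1, Eno1 and Ddias. Without adjustment 786 (6.50%) were more positive and 771 (6.38%) more negative. It differed from the preceding step for 0, with 689 more positive (5.70%) and 802 more negative (6.63%) at an unadjusted p below 0.05. The 6 were 1 with the replicate block and 64, with 18 in the other direction, when the near-identical libraries were kept apart. Pdk1 had 1832 to 2648 at 36 h and 303 to 1120 at 48 h, Slc16a3 had 4856 to 5665 and 582 to 4373, and neither difference between steps passed the test (adjusted p = 0.18 and 0.27). The 48 h libraries of both were widely spread.

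**Figure D5:**
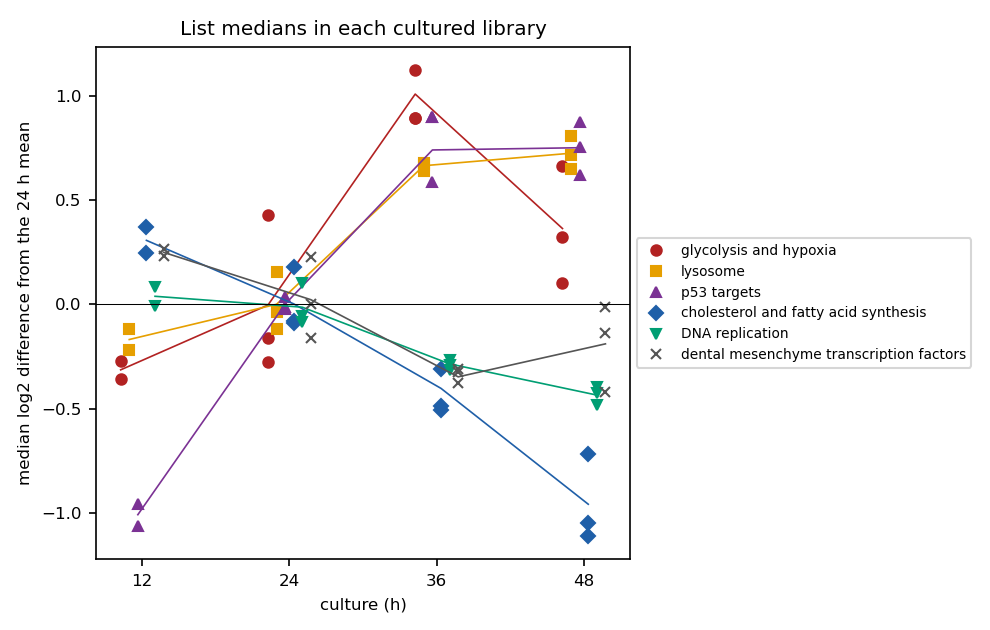
Median log2 difference from the 24 h mean over the members of 6 gene lists, in each library of cultured cells (points) against hours of culture, with lines through the mean of the libraries and small sideways shifts between lists. Glycolysis and hypoxia peaks at 36 h, lysosome and p53 target genes change little from 36 h to 48 h, and cholesterol and fatty acid synthesis goes on falling to 48 h.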

How the data were processed

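The authors aligned reads to mm10 Ensembl transcripts with bowtie, quantified them with RSEM and called changes with DESeq2. The RSEM version was 1.1.21 in the submitters' processing notes, and the study's methods name a different one. The values they deposited are whole-number scores with nearly the same distribution in every library, and are therefore not counts and carry no depth. Values were taken as log2(value + 1) and fitted with limma 3.58.1 (R 4.3.3, empirical Bayes with a trend) over the 14 libraries of cultured or fresh cells, with Benjamini-Hochberg adjustment over 12089 transcripts and a threshold of 0.05. The tissue library was not fitted. Replicates 1 and 2 at 36 h were averaged, which gave 13 samples, a choice made after seeing the data, since the planned design had entered every library. Deviations of same-numbered libraries at 24 h and 36 h correlated at 0.165, 0.145 and 0.126, so the replicate number was also fitted as a block, as an alternative. Transcripts named were the 12 largest rises and 12 largest falls among those called without overlap between libraries, up to 4 members of each gene list with the smallest adjusted p, and the genes the study discusses. Other list members, and the 6 whose change differed from the next step, were named after their values were seen. The comparison and the lists were chosen with earlier results of these data known. The code was tested on simulated data.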

Additional observations from a re-analysis of the deposited data

Results flagged for a closer look

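For 6 transcripts the log2 change from 24 h to 36 h differed from that from 36 h to 48 h in limma's test of the difference itself. The steps share the 36 h libraries, so a high 36 h value enters both. The difference was 3.05 (SE 0.44, adjusted p = 0.047) for Ldha, lactate dehydrogenase A, with 40684, 20924 and 28882 at 48 h. It was 2.47 (SE 0.35) for Ephx1, at 2313, 2363 and 2125 at 48 h, and 2.1 (SE 0.31) for Bnip3l, at 1906, 1281 and 1725. Thbs1, at 70508 in every 24 h and 48 h library and 127101 in every 36 h library, had 1.7 (SE 0.19, adjusted p = 0.018). The 36 h value is the maximum of the table, which 10 transcripts share in a library, so that the size of this difference is not exact. Eno1 had 1.57 (SE 0.22) and Ddias, which went from 1828, 1884 and 1775 to 2733, 2784 and 2851 and then to 2325, 2188 and 2181, had 0.95 (SE 0.14). Thbs1, Ldha and Eno1 take identical values in all 36 h libraries, which understates their spread.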

How the results depend on the processing

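Of 98 called transcripts among the 170 named, 21 kept their direction and call under all 17 alternatives, 77 lost the call under at least 1 and 0 reversed. Leaving out 1 library gave 119 to 756 higher and 30 to 581 lower. Averaging the near-identical 36 h libraries was chosen after seeing the data, and with them kept apart, as planned, there were 1210 higher and 1165 lower, and 1295 and 1201 with the replicate block as well. With a filter on a mean value of 100, 125 were lower at the unadjusted 2-fold cut. For the difference from the next step, eBayes without trend and the replicate block each left 1, keeping libraries apart gave 64 and 18, and with the block 150 and 102. For the difference from the preceding step, keeping them apart gave 1 lower. With the replicate block Ddit3, Dlk1, Has2, Hbb-y, Notch3, Pdgfrb, Serpine2 and Sox11 lost their call, and Bambi, Bhlhe41, Bmper, Cx3cl1, Dmp1, Dock5, Etv5, Fabp5, Gclm, Hes6, Igf2r, Msx2, Spc24, Srf and Wnt9a gained one. Directions turned for Twist2 (-0.0565 to 0.1668 over the left-out libraries, negative at -0.0097 without replicate 1 at 24 h, -0.0565 without replicate 3 at 36 h), Crebbp (-0.0105 with the block, -0.0108 to 0.1064 over the left-out libraries), Bmp4 (0.0028 with TMM factors, 0.0079 with the block, 0.0358 and 0.073 without replicate 1 or 2 at 24 h, -0.1322 without replicate 3) and Jag2 (0.0163 without replicate 3 at 36 h and down to -0.7786 without replicate 1), none of which was called, and the cause was not tested. The depth is unknown, so low transcripts have no counting interval.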
